A study of Rattus norvegicus with 4 samples.

Results

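Neuropeptides are cut from larger precursors inside dense-core vesicles and act on G protein-coupled receptors. This account covers 10 genes grouped as encoding neuropeptides of striatal interneurons and of fibres reaching the striatum. They are Sst (somatostatin), Npy (neuropeptide Y), Vip (vasoactive intestinal peptide), Cck (cholecystokinin), Cartpt (cocaine- and amphetamine-regulated transcript), Nts (neurotensin), Scg2 (secretogranin II), Trh (thyrotropin-releasing hormone), Gal (galanin) and Crh (corticotropin-releasing hormone). They were taken by symbol, through the Entrez identifier, from the features that the platform annotation assigns to exactly 1 gene. All 10 were found, on 12 of the 43628 features of the array and among 14878 named genes. Vip and Nts had 2 probes each and the other 8 genes had 1.

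The tissue was the striatum of 4 Wistar rats, all adult males, and all labelled RNA was taken at 16 h. In irradiated rats the left striatum had received a central maximum of 60 Gy from a gamma knife over 30 min through a 4 mm collimator, under pentobarbital anaesthesia in a stereotactic frame. RNA of the irradiated left striatum shared an array with RNA of the control rats' left striatum, and RNA of the same rats' un-irradiated right striatum with RNA of the control rats' right striatum. Neither how the control rats were handled nor how many rats stand behind each RNA is given in the sources used here. Each side has 2 two-colour arrays with swapped dyes: the RNA of irradiated rats was labelled with Cy5 on array 1 and with Cy3 on array 2. Their replicate labels are identical, so they were read as repeat measurements of 1 pair of RNAs. With 1 replicate per side no comparison could be tested, and precision is limited by how few arrays there are.

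Every value is log2 of the RNA of irradiated rats over control RNA. A gene is given by its value on arrays 1 and 2, then by their mean ± its distance to each of them; this spread is technical and holds no variation between animals. The deposited numbers were read as log10 of red over green. Their base and direction are not stated with the table, and green over red would turn every sign. A gene passed, as higher or as lower, if both arrays put it beyond 1.5-fold (a log2 value of 0.585) the same way. In these bulk samples, fewer cells of a type and less RNA per cell cannot be told apart. The file holds ratios only, so whether a peptide was abundant in the tissue, and whether the tissue's defining markers were present at all, was not analysed here.

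As background, somatostatin and neuropeptide Y are made together, with nitric oxide synthase, in 1 class of striatal GABAergic interneuron. Cholecystokinin is abundant in the cortex and in fibres that run from it to the striatum, and vasoactive intestinal peptide marks a class of cortical interneurons. The arrays read RNA, so peptide carried in fibres was not measured. CART and neurotensin occur in the striatum in neurons whose peptide content responds to dopaminergic drugs. Several of these genes are textbook targets of the cyclic AMP pathway, in which the factor CREB binds an element called the CRE.

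The promoters are shown because the values of the peptide genes can be set beside this element. RefSeq promoter sequences of the GRCr8 assembly, 250 bases before to 50 bases after the annotated start, were matched for 8 of the 10 genes; Cck and Crh had no match. Motifs were searched as exact letters on both strands. The palindromic CRE, TGACGTCA, lay in 3 of the 8 member promoters, those of Sst, Cartpt and Scg2, and in 1.83% of 33469 promoters. The shorter CRE half-site, TGACG, which is part of the palindrome, lay in 7 of the 8, with Npy as the exception, and in 21.2% of all. The AP-1 site TGAGTCA lay in the Nts promoter alone among the 8 and in 4.63% of all. The letters TATAAA lay in those of Vip and Gal and in 14.2% of all. Such a match is a description of letters and not a binding site. Capitals below mark the CRE palindrome or half-site and, for Nts, also the AP-1 site.

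Cartpt, chr2:32991186-32991485, minus strand: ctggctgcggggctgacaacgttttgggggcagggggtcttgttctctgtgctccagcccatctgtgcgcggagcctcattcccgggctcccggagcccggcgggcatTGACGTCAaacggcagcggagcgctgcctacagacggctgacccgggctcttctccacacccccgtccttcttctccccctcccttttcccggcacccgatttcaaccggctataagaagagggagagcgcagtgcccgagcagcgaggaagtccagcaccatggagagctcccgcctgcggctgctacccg
Scg2, chr9:88256817-88257116, minus strand: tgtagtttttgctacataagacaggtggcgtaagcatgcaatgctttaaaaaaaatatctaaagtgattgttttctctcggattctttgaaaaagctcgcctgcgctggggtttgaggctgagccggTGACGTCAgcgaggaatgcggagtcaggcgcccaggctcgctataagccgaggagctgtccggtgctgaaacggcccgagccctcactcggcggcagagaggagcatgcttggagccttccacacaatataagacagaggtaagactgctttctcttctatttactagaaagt
Sst, chr11:90461296-90461595, plus strand: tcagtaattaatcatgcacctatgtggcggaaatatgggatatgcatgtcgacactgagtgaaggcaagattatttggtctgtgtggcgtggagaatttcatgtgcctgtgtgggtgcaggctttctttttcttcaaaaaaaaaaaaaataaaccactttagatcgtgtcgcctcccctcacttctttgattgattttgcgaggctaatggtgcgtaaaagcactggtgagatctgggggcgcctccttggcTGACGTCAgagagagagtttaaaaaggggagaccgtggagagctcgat
Vip, chr1:44470230-44470529, plus strand: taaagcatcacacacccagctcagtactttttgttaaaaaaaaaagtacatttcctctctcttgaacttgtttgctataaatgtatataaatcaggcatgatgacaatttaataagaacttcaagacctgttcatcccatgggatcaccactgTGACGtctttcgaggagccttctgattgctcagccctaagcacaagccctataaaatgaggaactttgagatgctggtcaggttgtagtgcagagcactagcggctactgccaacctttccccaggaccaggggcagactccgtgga
Nts, chr7:39460839-39461138, minus strand: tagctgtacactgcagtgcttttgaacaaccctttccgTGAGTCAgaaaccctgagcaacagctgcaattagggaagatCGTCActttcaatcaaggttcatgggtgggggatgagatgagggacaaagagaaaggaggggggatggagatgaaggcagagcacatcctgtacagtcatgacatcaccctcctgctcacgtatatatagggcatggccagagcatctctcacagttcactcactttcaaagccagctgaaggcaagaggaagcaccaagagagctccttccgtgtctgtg

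The palindrome began 142 bases upstream of the annotated start in Cartpt and 123 bases upstream in Scg2, and at base 3 downstream of it in Sst. The half-site began 97 bases upstream in Vip, 63 in Gal, 74 in Trh and 171 in Nts. The AP-1 letters of Nts began 212 bases upstream. For the 3 genes that share the palindrome, Scg2, Cartpt and Sst, the means on the irradiated left were 0.73, 0.42 and 0.29. All 3 lay above 0 on both left arrays, and Scg2 alone of them passed. Nts and Gal, without the palindrome, and Crh, without a matched promoter, also lay above 0 on both left arrays. The share of all genes that did so was not counted, so this does not set the palindrome genes apart. On the un-irradiated right the means of Scg2, Cartpt and Sst were 0.17, -1.14 and 0.17, and Cartpt alone of these passed, as lower. The part of the element in these values was not tested.

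**Figure D1:**
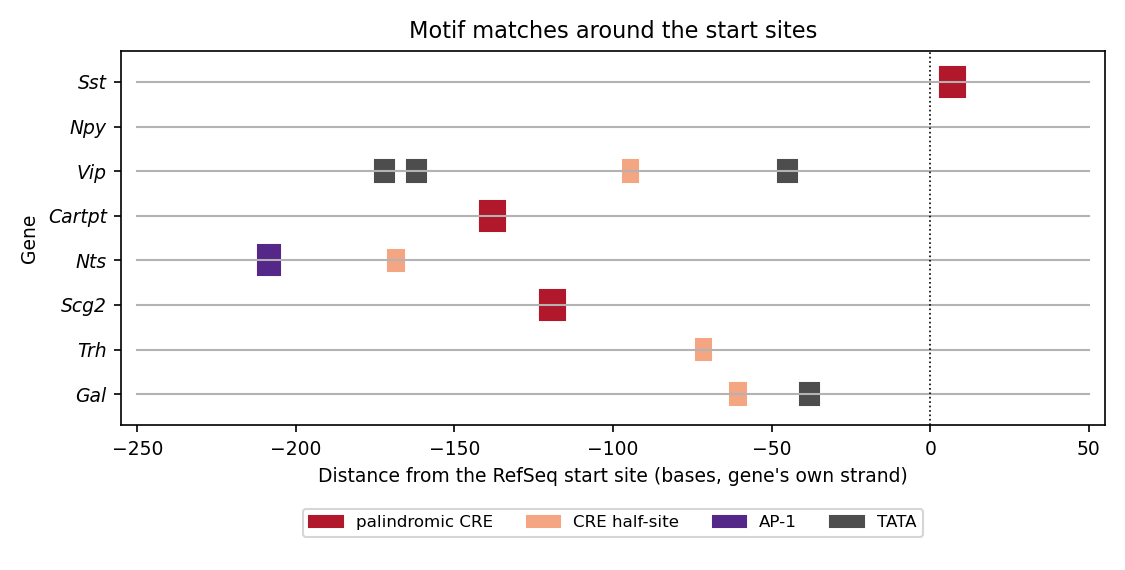
Motif matches in the 8 promoters found in the RefSeq table, one line per gene, against the distance in bases from the annotated start (dotted line). Blocks mark the palindromic CRE, its half-site, the AP-1 site and the TATA letters; the palindrome is seen in Sst, Cartpt and Scg2.

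On the irradiated left, 3 of the 10 peptide genes were higher (Crh, Scg2 and Nts) and 0 were lower. On the un-irradiated right, 2 were higher (Cck and Vip) and 1 was lower (Cartpt). None of the 10 passed on both sides. The share of all genes that did so was not counted, and few genes passed on either side, so this says little about the peptide genes. Of all 14878 genes, 1.18% passed as higher and 1.03% as lower on the left, against 1.71% and 1.46% on the right. The median of the 10 genes was 0.36 on the left and 0.16 on the right, beside 0.00 and -0.01 for all genes. The mean lay above 0 for 8 of the 10 on each side, beside 50.2% of all genes on the left and 47.9% on the right. Of these, Npy and Vip on the left and Npy and Sst on the right had arrays of opposite signs. These 10 genes were picked with results of these data known, and the 2 comparisons use RNA of the same sets of rats, so the counts are descriptions.

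**Figure D2:**
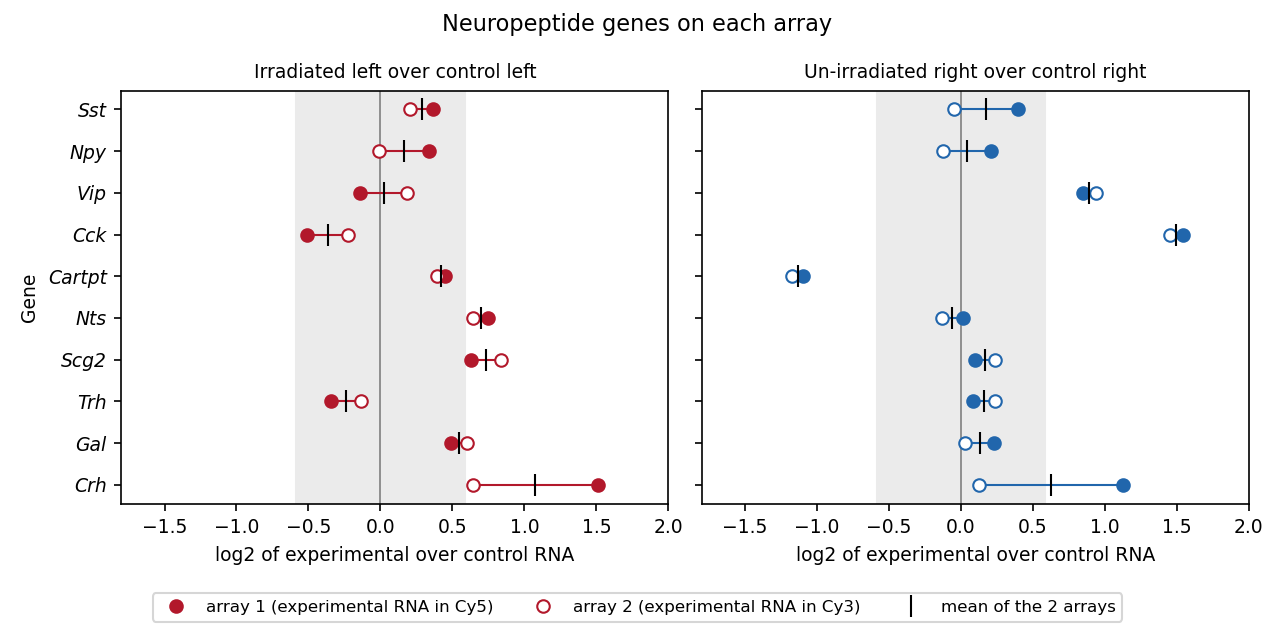
The log2 ratio of each peptide gene on array 1 (filled) and array 2 (open), with the mean as a bar, for the irradiated left (left panel) and the un-irradiated right (right panel); grey marks less than 1.5-fold. Crh, Scg2 and Nts lie above the grey on the left, Cck and Vip above it and Cartpt below it on the right.

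Cck gave the widest departure from control among the 10 genes. On the irradiated left it read -0.51 and -0.22 on arrays 1 and 2, a mean of -0.37 ± 0.15 that did not pass. On the un-irradiated right it read 1.54 and 1.45, a mean of 1.5 ± 0.04 or 2.82-fold, and it ranked 87 from the top of 14878 genes. Its 4 readings thus lay below control on both left arrays and above it on both right arrays. Of its receptors, Cckbr, the receptor that predominates in brain, had means of 0.21 ± 0.01 on the left and 0.32 ± 0.20 on the right and passed on neither.

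Vip, on the mean of its 2 probes, read -0.14 and 0.19 on the left (0.02 ± 0.16) and 0.85 and 0.94 on the right (0.89 ± 0.04, or 1.86-fold). The probes disagreed on the right. The probe annotated to a RefSeq mRNA read -0.02 and -0.27 on the left and 1.68 and 0.98 on the right, a right mean of 1.33 ± 0.35. The other probe read -0.26 and 0.64 on the left and 0.02 and 0.90 on the right, a right mean of 0.46 ± 0.44 that did not pass. The small spread of the gene's right value came from averaging probes whose arrays differed in opposite directions. The VIP receptors Vipr1 and Vipr2 had means of 0.06 ± 0.06 and -0.05 ± 0.34 on the left and of -0.14 ± 0.13 and 0.19 ± 0.57 on the right.

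Cartpt had the opposite pattern to Cck. It read 0.45 and 0.40 on the left, a mean of 0.42 ± 0.03 that did not pass, and -1.10 and -1.17 on the right, a mean of -1.14 ± 0.04. The right value is 0.46 of the control level and ranked 283 from the bottom of all genes. Both left readings lay above control and both right readings below it.

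Nts, which encodes neurotensin and neuromedin N, read 0.75 and 0.65 on the left (0.70 ± 0.05, or 1.62-fold) and 0.01 and -0.13 on the right (-0.06 ± 0.07). Its probes agreed on the left, with 0.83 and 0.54 for the first and 0.67 and 0.75 for the second. Array 2 of the first probe was just short of 1.5-fold, so the gene passed on the mean and on 1 of its 2 probes. The receptors Ntsr1 and Ntsr2 had means of 0.09 ± 0.49 and -0.32 ± 0.09 on the left and -0.20 ± 0.80 and -0.35 ± 0.22 on the right, and the sorting receptor Sort1, which also binds neurotensin, -0.16 ± 0.20 and -0.19 ± 0.32.

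Scg2, a granin of dense-core vesicles and the precursor of the peptide secretoneurin, read 0.63 and 0.84 on the left (0.73 ± 0.10, or 1.66-fold) and 0.10 and 0.24 on the right (0.17 ± 0.07). Both left readings exceeded both right ones. The other granins were measured beside it. Chga had 0.44 ± 0.13 on the left and 0.17 ± 0.10 on the right, Chgb 0.34 ± 0.04 and 0.42 ± 0.05. Scg5 had 0.18 ± 0.03 and 0.10 ± 0.01, Vgf 0.18 ± 0.02 and 0.06 ± 0.06, and Scg3, below 0 on both sides, -0.19 ± 0.33 and -0.25 ± 0.15. None of these 5 passed on a side.

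Crh, the peptide that starts the hormonal stress response and occurs outside the hypothalamus in scattered neurons, had the highest left mean of the 10 genes and the widest spread between arrays. It read 1.51 and 0.64 on the left (1.08 ± 0.44, rank 135 from the top) and 1.12 and 0.13 on the right (0.62 ± 0.50), where it did not pass. On both sides array 1, with the RNA of irradiated rats in Cy5, gave the higher reading. Crhbp, the protein that binds and sequesters this peptide, had 0.16 ± 0.08 on the left and 0.39 ± 0.05 on the right.

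Gal, a peptide known to be induced in injured neurons, read 0.49 and 0.60 on the left (0.55 ± 0.05) and 0.23 and 0.03 on the right (0.13 ± 0.10). It missed the 1.5-fold rule on left array 1 only. Its receptors Galr1, Galr2 and Galr3 passed on neither side. Trh read -0.34 and -0.13 on the left (-0.24 ± 0.11) and 0.08 and 0.23 on the right (0.16 ± 0.08), so its sides were again on opposite sides of 0, though within 1.5-fold. Of the 10 genes 3 (Cck, Cartpt and Trh) thus had both left arrays on one side of 0 and both right arrays on the other, beside 6.83% of all genes.

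Sst and Npy passed on neither side. Sst read 0.37 and 0.21 on the left (0.29 ± 0.08) and 0.39 and -0.05 on the right (0.17 ± 0.22). Npy read 0.34 and -0.01 on the left (0.17 ± 0.17) and 0.21 and -0.12 on the right (0.04 ± 0.16). Nos1, the nitric oxide synthase of the same interneurons, had -0.09 ± 0.43 and -0.23 ± 0.59, with 2 probes that differed on the right (0.28 and -0.75).

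Setting the sides against each other between arrays of the same dye orientation, 2 of the 10 genes were lower on the irradiated left than on the un-irradiated right (Cck and Vip) and 2 were higher (Cartpt and Nts). Of all genes 2.26% were lower and 2.59% higher by this rule. Cck differed by -2.05 and -1.68 (-1.87 ± 0.19, rank 47 from the bottom of all genes) and Vip by -0.99 and -0.75 (-0.87 ± 0.12). The Vip call rests on the probe annotated to a RefSeq mRNA, which differed by -1.47 ± 0.23, since the other Vip probe differed by -0.27 ± 0.01 and did not pass. Cartpt differed by 1.55 and 1.57 (1.56 ± 0.01, rank 186 from the top) and Nts by 0.74 and 0.78 (0.76 ± 0.02), and both probes of Nts passed. Markers of other cells differed beside them: 4 of 14 measured markers of cortical and other excitatory neurons were lower on the left and 0 higher (median -0.57), and of 22 striatal projection neuron markers 2 were higher and 0 lower (median 0.20). The part of these markers in the differences of the peptide genes was not tested.

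Among the rest, Scg2 differed by 0.53 and 0.60 (0.56 ± 0.03), just short of the rule, Crh by 0.45 ± 0.06, Gal by 0.42 ± 0.16 and Trh by -0.40 ± 0.03. Npy differed by 0.13 ± 0.01 and Sst by 0.11 ± 0.14. In order from the highest, the differences thus ran Cartpt, Nts, Scg2, Crh, Gal, Npy, Sst, Trh, Vip and Cck. The readings of Gal overlapped those of Scg2 and of Crh, and those of Npy lay within the range of Sst; the other neighbours in this order did not overlap. The members' spread between the array pairs had a median of 0.05 in this difference, against 0.10 for the left ratios and 0.07 for the right ratios; over all genes the medians were 0.14, 0.17 and 0.19.

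**Figure D3:**
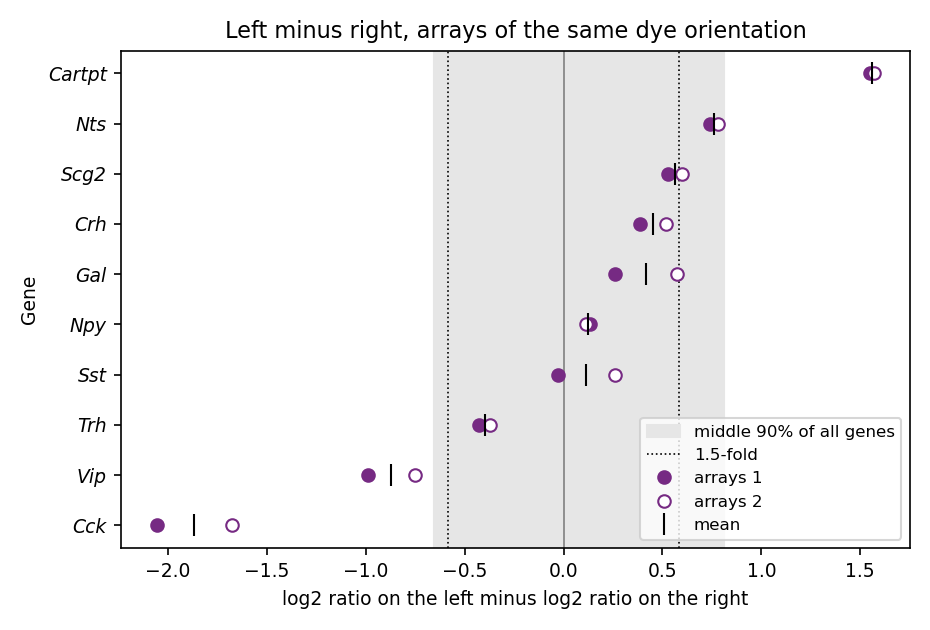
Left log2 ratio minus right log2 ratio for each peptide gene, between arrays 1 (filled) and arrays 2 (open), with the mean as a bar; grey spans the middle 90% of all genes and dotted lines mark 1.5-fold. Cartpt at 1.56 lies above the grey, Vip at -0.87 and Cck at -1.87 below it, and Nts at 0.76 inside it.

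For some probes the swapped arrays disagreed alike on both sides. The reading of array 1 minus that of array 2, divided by 2, was 0.44 on the left and 0.50 on the right for Crh, and -0.45 and -0.44 for the Vip probe without a RefSeq mRNA. For Cartpt it was 0.03 and 0.04, and for Cck -0.15 and 0.04. For Crh and that Vip probe the disagreement thus had the same sign and nearly the same size on both sides, and it largely drops out of the difference between them. As deposited, before array 2 was turned, the arrays of a swap had opposite signs for 10 of the 12 probes on the left and 8 of 12 on the right, beside 45.9% and 42.1% of all features. A probe can pass after the turn only if its deposited signs are opposite, and the members were picked with results of these data known. Their counts thus cannot decide whether array 2 should be turned.

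**Figure D4:**
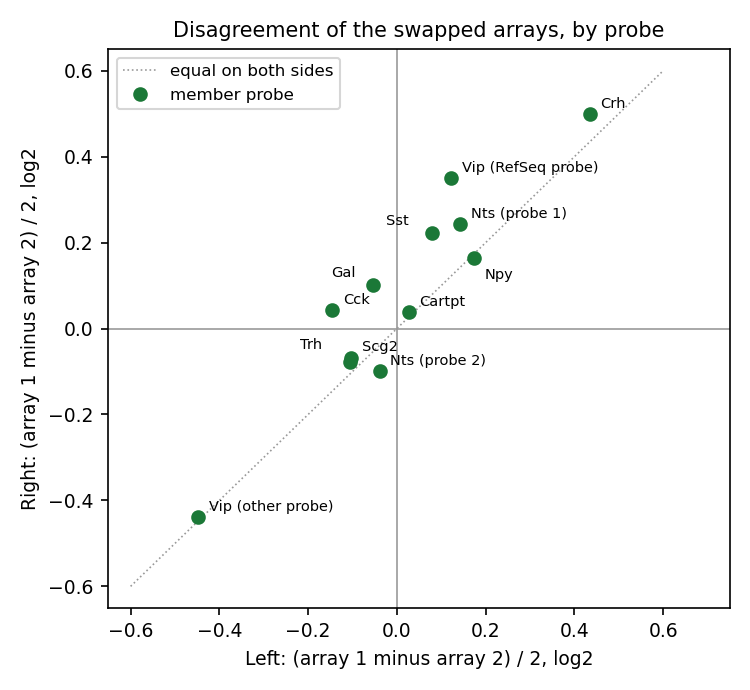
The reading of array 1 minus that of array 2, divided by 2 (log2), for the 12 probes of the peptide genes, left comparison on the horizontal axis and right comparison on the vertical axis; the dotted line marks equal values. Crh lies at the upper right and the Vip probe without a RefSeq mRNA at the lower left, with Cartpt and Cck near the centre.

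Receptors of these peptides were read for 19 of 23 genes listed, binding proteins included. For this list and those that follow, 2.2% of all genes passed on the left, 3.17% on the right and 4.85% between sides, both directions together. On the irradiated left 1 was higher, the TRH receptor Trhr (2.34 and 1.16, mean 1.75 ± 0.59), and 0 were lower. On right arrays 1 and 2 Trhr read 1.64 and -3.43, so its right readings had opposite signs. On the un-irradiated right 2 were higher and 0 lower, both receptors for somatostatin. Sstr1 read 0.70 and 0.52 on the left and 1.80 and 1.65 on the right (1.73 ± 0.07), and Sstr3 0.19 and 0.31 on the left and 1.61 and 0.98 on the right (1.29 ± 0.32). Their ligand gene Sst did not pass on that side. Sstr2, Sstr4 and Sstr5 had right means of 0.17 ± 0.18, -0.03 ± 0.22 and 0.06 ± 0.02.

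Between sides 2 receptors were lower on the left and 2 higher. Sstr1 was lower on the left by a log2 difference of -1.12 ± 0.02 and Sstr3 by -1.04 ± 0.38. The presynaptic neuropeptide Y receptor Npy2r was higher on the left by 1.52 ± 0.21; it read 0.77 and 0.32 on the left and -0.54 and -1.42 on the right and passed on neither side alone. Trhr was higher on the left by 0.70 and 4.59 (2.65 ± 1.95), with right arrays of opposite sign. The list's median was 0.10 on the left and 0.06 on the right.

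Genes of the machinery that makes and releases peptides were also read, in numbers too small to set apart from the share of all genes passing. That share, both directions together, was 2.2% on the left and 3.17% on the right. Of 15 measured genes for precursor processing and dense-core vesicles, 0 were higher or lower on the left (median 0.13), and on the right 1 was higher and 0 lower (median 0.05). That gene was Cadps, a priming factor for dense-core vesicle release, at 0.66 ± 0.05. The highest left means were those of the vesicle protein Syt4 (0.45 ± 0.03) and Chga, and the lowest those of Scg3 (-0.19 ± 0.33) and Ptprn2 (-0.06 ± 0.07). The prohormone convertase Pcsk2 had means of 0.04 ± 0.40 on the left and -0.20 ± 0.44 on the right, the carboxypeptidase Cpe 0.01 ± 0.00 and -0.30 ± 0.21, and the amidating enzyme Pam -0.04 ± 0.04 and -0.06 ± 0.12.

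Of 12 measured peptidases, beside 2.2% and 3.17% of all genes, 0 passed on the left (median 0.01), and on the right 2 were higher and 0 lower (median 0.01). They were Trhde, which degrades thyrotropin-releasing hormone, at 0.81 ± 0.04, and Fap, a fibroblast protease, at 0.70 ± 0.08. On the left Fap read 0.20 and 1.03 (0.61 ± 0.42), and its sides differed by -0.08 ± 0.50. The 2 probes of Trhde had right means of 1.16 ± 0.33 and 0.46 ± 0.41, the second of which did not pass. Their arrays differed in opposite directions, so the small spread of the gene's right mean came from averaging them. Between sides Trhde was lower on the left by -1.07 ± 0.20, on 1 of its probes. Mme (neprilysin), which cleaves many small peptides, was higher on the left than on the right by 0.77 ± 0.09 and passed on neither side alone.

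Of 35 other neuropeptide precursors measured, 2 were higher and 1 lower on each side (median -0.06 on the left and -0.07 on the right). Grp (gastrin-releasing peptide) and Pnoc (the nociceptin precursor) were higher on both sides, Grp at 1.17 ± 0.25 and then 1.59 ± 0.45, Pnoc at 0.86 ± 0.15 and then 1.04 ± 0.18. Apln (apelin) was lower on the left at -0.70 ± 0.05, on the mean and on 1 of its 2 probes, and Pdyn, the dynorphin precursor of projection neurons, lower on the right at -0.74 ± 0.06. Between sides, Pdyn was higher on the left by 0.87 ± 0.01 and Pmch, the precursor of melanin-concentrating hormone, by 0.73 ± 0.05, as Cartpt was. Cort (cortistatin), a relative of somatostatin, had 0.01 ± 0.14 on the left and 0.45 ± 0.09 on the right.

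Interneuron markers other than peptides passed in 0 of 24 measured genes on either side, beside 2.2% and 3.17% of all genes (medians 0.02 on the left and 0.06 on the right). The GABA-synthesising enzymes Gad1 and Gad2 are made by GABAergic neurons in general, so they do not mark interneurons alone. They had left means of 0.50 ± 0.13 and 0.20 ± 0.07 and right means of -0.08 ± 0.04 and -0.10 ± 0.07. On the left 1 of the 3 Gad1 probes passed as higher (0.67 ± 0.05), though the gene did not. Calretinin (Calb2) had 0.55 ± 0.00 and 0.46 ± 0.04. Between sides 2 were lower on the left, Pvalb (parvalbumin, of fast-spiking interneurons) by -0.83 ± 0.08 and the transcription factor Maf by -0.70 ± 0.05, and 0 were higher. Pvalb read -0.22 and -0.25 on the left and 0.53 and 0.67 on the right, where array 1 fell short of the rule.

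Markers of other cells passed on the right beside Cck, Vip and Cartpt. Of 14 measured markers of cortical and other excitatory neurons, 0 were higher on the left and 1 lower (median -0.06, lowest -0.68, highest 0.32), and on the right 3 were higher and 0 lower (median 0.23, lowest -0.27, highest 1.95). The lower one was the transcription factor Emx2 (-0.68 ± 0.04), which passed on the mean of its probes and on neither of the 2 alone (-0.63 ± 0.25 and -0.72 ± 0.16), and the 3 on the right were the transcription factors Neurod2 (1.95 ± 0.23) and Neurod1 (1.41 ± 0.45) and the vesicular glutamate transporter Slc17a7 (1.21 ± 0.23). On the left 1 of the 2 Slc17a7 probes passed as higher (0.82 ± 0.06) and the other read -0.19 ± 0.11, a gene mean of 0.32 ± 0.03. Between sides Neurod2 (-2.01 ± 0.05), Neurod1 (-1.26 ± 0.44), Slc17a7 (-0.90 ± 0.26) and the transcription factor Lhx2 (-0.69 ± 0.04) were lower on the left, Slc17a7 on 1 of its 2 probes. Of 22 striatal projection neuron markers, 2 were lower on the left and 0 higher (median -0.32, lowest -0.81, highest 0.13), and on the right 7 were lower and 0 higher (median -0.61, lowest -1.31, highest -0.01). Rgs9, a regulator of dopamine signalling, was lower on both sides (-0.81 ± 0.03 and -0.75 ± 0.02) and the sodium channel subunit Scn4b on the left (-0.72 ± 0.00). On the right Scn4b had -0.55 ± 0.19 and did not pass, though 1 of its 2 probes passed as lower (-0.66 ± 0.01). Besides Rgs9, the 6 genes that passed on the right were Foxp2, Foxp1, Gpr6, Adora2a, Adcy5 and Drd1. They ran from -1.31 ± 0.50 for Foxp2 to -0.63 ± 0.01 for Drd1. Foxp1 and Adora2a each passed on the mean and on 1 of 2 probes. Between sides Drd1 (0.76 ± 0.07) and Rarb, a retinoic acid receptor (1.11 ± 0.38), were higher on the left, Rarb on 1 of its 2 probes. The part of these markers in the values of Cck, Vip, Cartpt and the somatostatin receptors was not tested. Of 13 hypothalamic, thalamic and septal markers, 1 was higher on the left (Trpc4, 0.73 ± 0.03) and 0 passed on the right, where Trpc4 had 0.68 ± 0.33. Between sides 1 was lower on the left, the transcription factor Zic2 (-0.83 ± 0.18). Zic2 read -1.68 and 0.68 on the left and -0.665 and 1.33 on the right, so its arrays had opposite signs on both sides.

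Of 19 activity-regulated genes 1 was higher on the left, Fos at 1.10 ± 0.27, and 2 on the right, the nuclear receptor Nr4a2 at 1.14 ± 0.05 and the pentraxin Nptx2 at 0.71 ± 0.01, with 0 lower on either side. The 2 probes of Nptx2 had right means of 0.95 and 0.47, of which the second did not pass, so its small spread came from averaging them. Nr4a2 read -0.66 and -0.25 on the left, so between sides it was lower on the left by -1.59 ± 0.16, in the same direction as Cck.

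**Figure D5:**
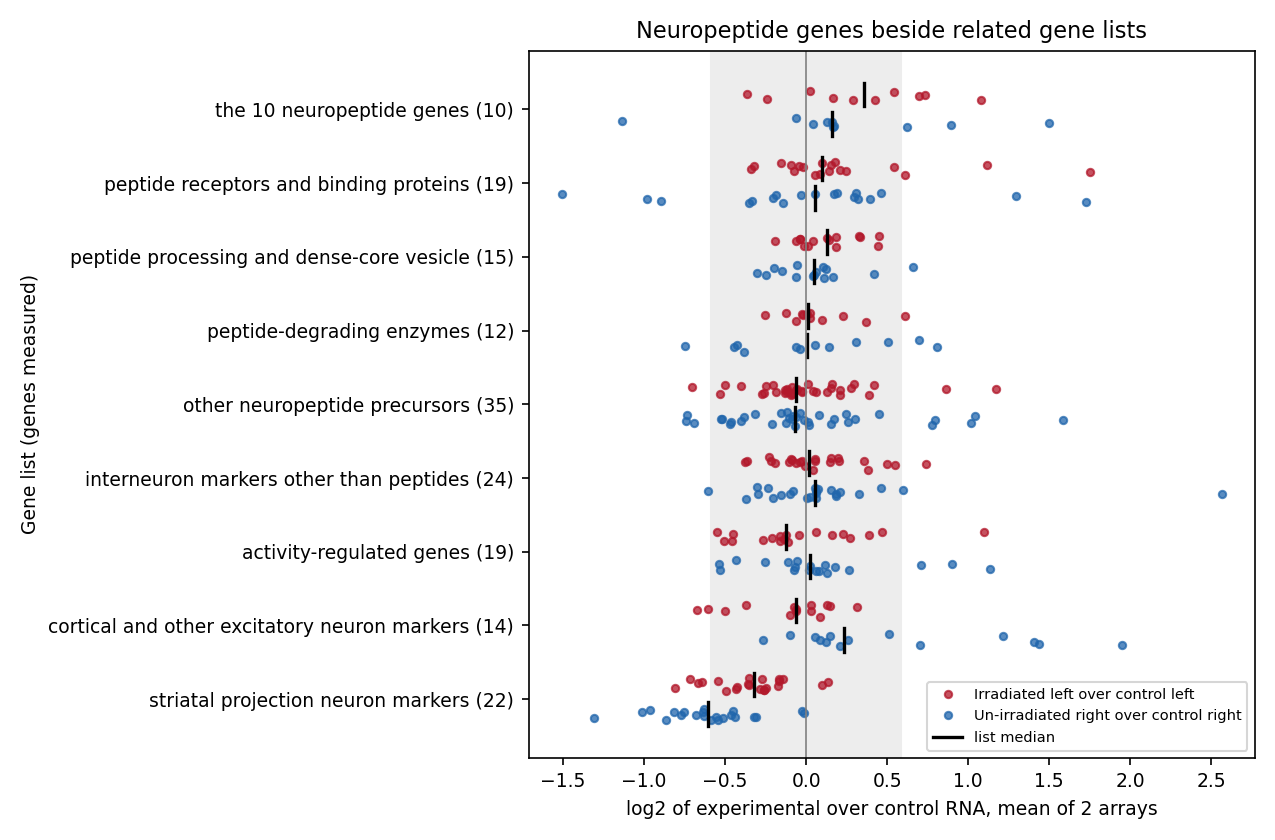
Mean log2 ratio of each gene, by list, for the irradiated left (red, upper row of each list) and the un-irradiated right (blue, lower row), with list medians as black bars and grey for less than 1.5-fold; the number of genes measured follows each name. The striatal projection neuron markers have medians of -0.32 on the left and -0.61 on the right, and the 10 neuropeptide genes 0.36 and 0.16.

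Genes with the nearest 4 readings to each passing peptide gene were found by Euclidean distance over the 4 arrays, which hold 2 pairs of RNAs, so likeness here says little. Nearest to Cck were Or11h23b (distance 0.43), Srpk3 (0.47) and Nptxr (0.53), and to Cartpt Sel1l2 (0.32), Slc22a20 (0.49) and Impg2 (0.57). Nearest to Vip were Or6c219 (0.21), Lrrc14b (0.22) and Mpdz (0.25), and to Nts Tjp3 (0.09), Csrp2 (0.17) and Dynlrb2 (0.19). Nearest to Scg2 were Adprs (0.10), Oas1a (0.15) and Prps2 (0.17), and to Crh Enkur (0.51), Irf7 (0.54) and Tnfrsf1b (0.54). The nearest gene was thus farther from Crh, Cck and Cartpt than from Vip, Nts and Scg2. Crh, Cck and Cartpt also held the readings farthest from 0 among these genes, where fewer genes lie. This order of distances therefore says little about their pattern.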

How the data were processed

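Two-colour Agilent rat arrays compared striatal RNA of irradiated and control rats. Agilent Feature Extraction 8.1 is named in the submitters' processing notes, without settings. The authors deposited 1 ratio per feature and array, read here as log10 of Cy5 over Cy3 and converted to log2, with no further normalization. Medians as deposited (log10) ran from 0.00418 to 0.0111. Array 2 of each side was turned, from the dyes in the labels. Of 43628 features, 23535 had 1 gene in GEO's platform annotation, with symbols updated through the RefSeq gene table (GRCr8). A gene's value is the mean over its probes. Calls used Python 3.11.15 with pandas 2.3.3 and were tested on simulated data. The 10 members and the 9 comparison lists were chosen with earlier results of these data known. Named list genes are those past 1.5-fold on both arrays of a side, or the extremes of a list; receptors and partners of members, processing enzymes, granins, Gad1, Gad2, Calb2, Cort and genes that passed only between sides were added after their values were seen. In all, 9 alternatives were tried.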

Additional observations from a re-analysis of the deposited data

Results flagged for a closer look

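Among the peptide genes, 3 had both left arrays on one side of 0 and both right arrays on the other, as did 6.83% of all 14878 genes. The log2 difference of left minus right was -1.87 for Cck, 1.56 for Cartpt and -0.40 for Trh. The same held for 4 related genes that passed on a side: Drd1, a dopamine receptor, at 0.76, Pdyn at 0.87, Nr4a2 at -1.59 and Trhde at -1.07. Left array 1 of Trhde read -0.01, and left array 2 of Drd1 and Pdyn read 0.07 and 0.06, so these 3 met the rule narrowly. Among the peptide genes Trh also met it narrowly, with 0.08 on right array 1. The difference between sides was not tested, since each side has 1 replicate.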

How the results depend on the processing

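Centring each array on its median and taking the median over probes left all 3 counts of passing members as they were, as did keeping RefSeq mRNA probes only. That last setting moved Vip on the right to 1.33. Array 1 alone gave 3 passing members on the left, 4 on the right and 4 between sides (19.5%, 20.7% and 19.3% of all genes), and array 2 alone 4, 3 and 5 (16.2%, 24.2% and 22.8%). Had the deposited values already been turned to one direction, 0 of the 10 would pass on the left, the right or between sides. Of all genes 5.71%, 7.45% and 4.42% would then pass, against 2.2%, 3.17% and 4.85% as read here. Vip and Cartpt on the right and Scg2 on the left would read -0.0443, 0.0376 and -0.102. Read as log2 in place of log10, the deposited values also put 0 past the threshold in each comparison (0.0807%, 0.0538% and 0.134% of all genes). With the threshold lowered to 0.322 on the log2 scale, 5 passed on the left, with Cartpt and Gal added (6.92% of all genes), 3 on the right (8.44%) and 7 between sides, with Scg2, Trh and Crh added (12.5%). At 2-fold 0 passed on the left (0.518%), Cck and Cartpt on the right (0.88%), and those 2 between sides (1.47%). No paired analysis was possible because each side has 1 replicate. Spot intensities were not used here, so nothing is known of signal over background for any probe.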
